A study of Mus musculus with 284 samples.

Results

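The cells described here are the 140 tumour propagating cells, of 284 in all, with the highest and the lowest transcript levels of 12 respiratory chain genes in their own mouse. A score was computed for each cell as the mean z-score, within a mouse, of Cox4i1, Cox8a, Cox7a2, Cox7c, Cox5a, Uqcr10, Uqcrq, Ndufa3, Ndufa8, Atp5l, Atp5b and Atp5a1 on a log2(CPM + 1) scale (CPM, counts scaled to a library total of 1000000; the pseudocount was 1), after linear trends on total counts and on genes detected had been removed. The top 25% of each mouse's cells were called high and the bottom 25% low, which gave 70 high and 70 low cells, with 144 cells between them. KO1, KO3, WT1 and WT2 held 18, 13, 17 and 22 cells of each class. The cells were thus chosen by the measured levels of these 12 genes, which are given below as a description with no test.

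The cells came from skin tumours of 4 C57BL/6 mice, 2 labelled Sirt6-/- (KO1 and KO3) and 2 wild type (WT1 and WT2). SIRT6 is a chromatin deacetylase of the sirtuin family. All animals carried a Keratin14-Cre transgene and a ROSA26-LSL-eYFP reporter, so that descendants of keratin 14 expressing epidermal cells were marked, and all received the mutagen DMBA once, at 8 weeks of age, and then TPA, a tumour promoter, over more than 20 weeks. Live YFP-positive cells stained for CD34 and CD49f (integrin alpha 6) were sorted one to a well and sequenced by Smart-seq2, which primes on the poly(A) tail and gives reads along the transcript without molecular identifiers. The mouse, not the cell, is the replicate in each comparison, with 2 mice per genotype and 4 in all. The labels end in P1 to P4: the mice labelled Sirt6-/- lie on P1 and P2 and the wild type on P3 and P4, so genotype and this split cannot be told apart.

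Respiratory chain complexes I to IV pass electrons from NADH and succinate to oxygen. Complexes I, III and IV pump protons out of the mitochondrial matrix, and ATP synthase, complex V, uses the returning protons to make ATP. Most subunits are encoded in the nucleus by short transcripts and imported, while a few core subunits are encoded and translated inside the mitochondrion. In skin tumours these cells have been studied for their use of glycolysis, the pathway that yields ATP outside the mitochondrion.

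Nuclear respiratory genes are known for promoters with sites for NRF1, ETS family factors such as GABPA, and YY1, so the windows from 250 bases before to 50 bases after the start of 5 genes are printed, from RefSeq on GRCm38.p6. Cox8a, Ndufa3 and Atp5l are scoring genes that parted the classes clearly, Atp5b, like Atp5a1, parted them least on average over the mice once it was left out of the score, and Rps25 encodes a cytosolic ribosomal protein that parted the classes like a respiratory gene. Capitals mark matches, on either strand, to the cores GCGCATGC (NRF1), CCGGAAG (ETS) and AAGATGGC (YY1), whose reverse complements are GCATGCGC, CTTCCGG and GCCATCTT. These cores do not overlap one another in the windows shown.
Cox8a (chr19:7217567-7217866, minus strand): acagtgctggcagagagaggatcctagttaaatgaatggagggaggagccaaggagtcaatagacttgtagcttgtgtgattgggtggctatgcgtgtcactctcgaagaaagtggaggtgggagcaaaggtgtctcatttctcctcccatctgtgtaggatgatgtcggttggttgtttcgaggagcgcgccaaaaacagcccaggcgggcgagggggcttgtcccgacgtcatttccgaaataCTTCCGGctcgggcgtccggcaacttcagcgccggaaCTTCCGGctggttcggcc
Ndufa3 (chr7:3617123-3617422, plus strand): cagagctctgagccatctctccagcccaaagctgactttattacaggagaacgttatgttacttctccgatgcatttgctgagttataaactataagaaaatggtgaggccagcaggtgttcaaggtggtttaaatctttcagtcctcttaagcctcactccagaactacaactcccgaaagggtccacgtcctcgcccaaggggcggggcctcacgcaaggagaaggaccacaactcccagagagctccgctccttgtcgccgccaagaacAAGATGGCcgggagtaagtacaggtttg
Atp5l (chr9:44920693-44920992, minus strand): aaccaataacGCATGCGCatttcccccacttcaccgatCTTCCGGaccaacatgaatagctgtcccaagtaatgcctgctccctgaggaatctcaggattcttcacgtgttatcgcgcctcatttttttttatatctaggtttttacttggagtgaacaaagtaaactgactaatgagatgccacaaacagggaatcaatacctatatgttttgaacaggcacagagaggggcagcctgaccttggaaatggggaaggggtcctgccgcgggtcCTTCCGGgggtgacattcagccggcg
Atp5b (chr10:128083057-128083356, plus strand): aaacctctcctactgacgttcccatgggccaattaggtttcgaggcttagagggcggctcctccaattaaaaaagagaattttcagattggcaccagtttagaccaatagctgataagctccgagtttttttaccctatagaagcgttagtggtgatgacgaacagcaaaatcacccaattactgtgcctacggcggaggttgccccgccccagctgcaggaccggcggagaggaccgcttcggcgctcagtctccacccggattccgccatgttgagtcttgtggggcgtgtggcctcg
Rps25 (chr9:44407464-44407763, plus strand): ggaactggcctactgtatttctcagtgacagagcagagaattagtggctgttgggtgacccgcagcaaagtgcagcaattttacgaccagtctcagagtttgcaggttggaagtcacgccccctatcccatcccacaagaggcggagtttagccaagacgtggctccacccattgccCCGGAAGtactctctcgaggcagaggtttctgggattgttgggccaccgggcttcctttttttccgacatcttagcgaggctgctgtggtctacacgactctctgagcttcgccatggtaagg
Cox8a held 2 ETS matches, Atp5l 1 NRF1 and 2 ETS matches, Ndufa3 1 YY1 match, Rps25 1 ETS match and Atp5b none of these letters.

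Over larger sets, 9 of the 12 scoring genes had a promoter in the table, and 2 of them held the NRF1 core, 2 the ETS core and 1 the YY1 core. Of 56 respiratory genes outside the score with a promoter, 9 held the NRF1 core (16.1%), 14 the ETS core and 8 the YY1 core (14.3%), against 2.78%, 9.08% and 2.86% of all 27025 promoters of the same length. Of 65 promoters of cytosolic ribosomal protein genes, 3.08% held the NRF1 core, 40.0% the ETS core and 10.8% the YY1 core. The matches are letters in a window and describe no binding.

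Across the series, cells held 523999 to 1684464 counts, with a median of 1130412, and no pair of cells had identical counts. The 8 sums of cells by class and mouse that entered the tests held 15338778 to 23256711 counts. Sirt6 transcripts were counted in 62.9% of high and 71.4% of low cells, at 38.6 and 15.5 CPM in the high cells of KO1 and KO3 and 21.3 and 13.3 CPM in those of WT1 and WT2, and at 23.2 and 9.7 CPM in the low cells of KO1 and KO3 and 15.9 and 29.1 CPM in those of WT1 and WT2. Counts per gene do not show which part of the gene was deleted, and the genotypes are called here by their labels. Krt5 and Krt14, keratins of basal keratinocytes, were counted in 100.0% of cells of both classes, Trp63, which encodes the basal transcription factor p63, in 98.6% of high and 95.7% of low cells, Itga6 in 85.7% and 94.3%, Cd34 in 74.3% and 67.1%, and Sox9 in 92.9% and 77.1%. Of 6 fibroblast markers Col1a2, Col3a1, Dcn and Lum were at 0 in both classes, and the list summed to 0 to 2.59 CPM over the high and 0 to 2.67 CPM over the low cells of a mouse. Of 7 adipocyte and muscle markers Adipoq and Ucp1 were at 0, and the list summed to 0.18 to 3.51 CPM in high and 0 to 0.05 CPM in low cells. The 6 immune markers summed to 0 to 30.13 CPM in high and 5.81 to 50.54 CPM in low cells, with Cd3e and Cd207 at 0, the 4 endothelial markers to 5.58 to 8.87 and 4.53 to 16.61 CPM, with Kdr at 0, and the 4 melanocyte markers to 0 to 10.27 and 0.24 to 0.64 CPM, with Dct and Tyrp1 at 0. The 4 sebaceous markers summed to 138.44 to 269.51 CPM in high and 119.69 to 187.09 CPM in low cells, of which Mgst1, which many cells express, was the most abundant.

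Of the cells in the classes, 3 stood apart, lying more than 6 robust SDs (from the median absolute deviation) from the median of all cells in the score, the mean transcript length, the share of pseudogene counts or the ribosomal protein level. A high cell of KO1, with a score of 2.46, had a mean transcript length of 1171 bases and 10.52% of its counts in pseudogenes, and a high cell of KO3, with a score of 1.38, had 1498 bases and 9.06%, against medians of 2471.97 bases and 3.86% over all cells. A low cell of WT1, with a score of -2.78, had 2999 bases and 2.08%, and 530022 counts in all. These cells lie at the ends of the score and move with the differences described below, so the classes were also drawn without them, an alternative chosen after seeing the data, in which 60 of 70 high and 65 of 70 low cells kept their class. Without them DESeq2 called 542 genes and 32 respiratory genes outside the score, and the median over these was again 0.70, with all 68 above 0, 58 higher in all 4 mice and medians of 0.70, 0.82, 0.63 and 0.63 in KO1, KO3, WT1 and WT2. The ribosomal protein median was 0.61. Of 102 named genes 13 lost a DESeq2 call and 3 gained one. These, and some of the lists that changed, are given beside their values.

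At the threshold, the last high cell and the cell next below it had scores of 0.32 and 0.308 in KO1, 0.357 and 0.327 in KO3, 0.312 and 0.31 in WT1 and 0.332 and 0.317 in WT2. On the other side, the last low cell and the cell next above it had scores of -0.248 and -0.226 in KO1, -0.384 and -0.346 in KO3, -0.313 and -0.308 in WT1 and -0.306 and -0.256 in WT2. The scores ran without a gap at either bound, so the classes are ranges of a continuous measure. The median score lay between 0.479 and 0.625 in high cells and between -0.727 and -0.491 in low cells over the 4 mice.

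The scoring genes themselves parted the classes unequally. Cox4i1, a core regulatory subunit of cytochrome c oxidase (complex IV), lay at 796.3, 640.3, 499.5 and 703.4 CPM in the high cells of KO1, KO3, WT1 and WT2, against 389.0, 393.2, 280.1 and 446.7 CPM in the low cells. Cox8a, a small subunit of the same complex, lay at 404.9, 429.8, 261.7 and 284.1 CPM in high cells, against 163.2, 201.5, 146.2 and 157.8 CPM in low cells. Uqcr10, a small subunit of complex III, lay at 106.6, 158.3, 47.4 and 70.6 CPM in high cells, against 35.7, 45.4, 27.7 and 27.4 CPM in low cells. For these 3 genes the ranges of the classes did not overlap. Cox7a2 lay at 176.7, 199.0, 96.9 and 155.3 CPM in high cells, against 57.4, 99.6, 55.8 and 53.4 CPM in low cells, and the cells between the classes of WT1 were at 102.4 CPM, above its high cells. Ndufa3 of complex I lay at 37.6, 48.5, 21.9 and 31.3 CPM in high cells, against 14.7, 19.5, 12.2 and 11 CPM in low cells. Atp5l, subunit g of ATP synthase, lay at 210.4, 210.2, 107.8 and 133.7 CPM in high cells, against 76.2, 102.9, 67.9 and 69.4 CPM in low cells. The high cells of a mouse were above its low cells in 4 of 4 mice for each of these genes.

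The alpha and beta subunits of ATP synthase, which form its catalytic head, differed less between the classes than most scoring genes. Atp5b, the beta subunit, lay at 2484.8, 2043.4, 2190.6 and 2127.9 CPM in high cells, against 2013.9, 1776.6, 1536.2 and 1612.4 CPM in low cells. Atp5a1, the alpha subunit, lay at 1948.3, 1728.0, 2117.6 and 2003.1 CPM in high cells, against 1866.1, 1677.8, 1543.2 and 1511.0 CPM in low cells. Its direction in KO1 depended on scaling: with the TMM scaling used further below it lay at 1848.89 CPM in high and 1885.9 CPM in low cells of KO1. When each gene was left out and the cells were split again by the score of the other 11, the log2 ratio of high over low cells was 0.01, -0.03, 0.38 and 0.24 for Atp5b and -0.01, -0.10, 0.16 and 0.21 for Atp5a1 in KO1, KO3, WT1 and WT2. For the other 10 genes it lay between 0.18 (Ndufa8 in WT1, below Atp5b there) and 1.67 (Uqcr10 in KO3). Across the cells of a mouse, Atp5a1 had a Pearson correlation with the score of the other 11 genes of -0.526 in KO1 (73 cells), -0.274 in KO3 (54 cells), 0.216 in WT1 (69 cells) and 0.099 in WT2 (88 cells), and Cox8a one of 0.680, 0.589, 0.797 and 0.437. Without the 3 cells that stood apart the correlation of Atp5a1 was 0.021, -0.083, 0.158 and 0.099 and that of Cox8a 0.557, 0.530, 0.703 and 0.437, so the negative value of Atp5a1 in KO1 rested on 1 cell. The points of these correlations share library, depth and detection. The mean correlation over the 66 pairs of scoring genes was 0.243, 0.235, 0.317 and 0.169 in KO1, KO3, WT1 and WT2. The transcripts of Atp5b (1916 bases) and Atp5a1 (2572 bases) are the longest of the 12, and those of the other 10 measure 433 bases (Ndufa3) to 861 bases (Ndufa8).

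**Figure D1:**
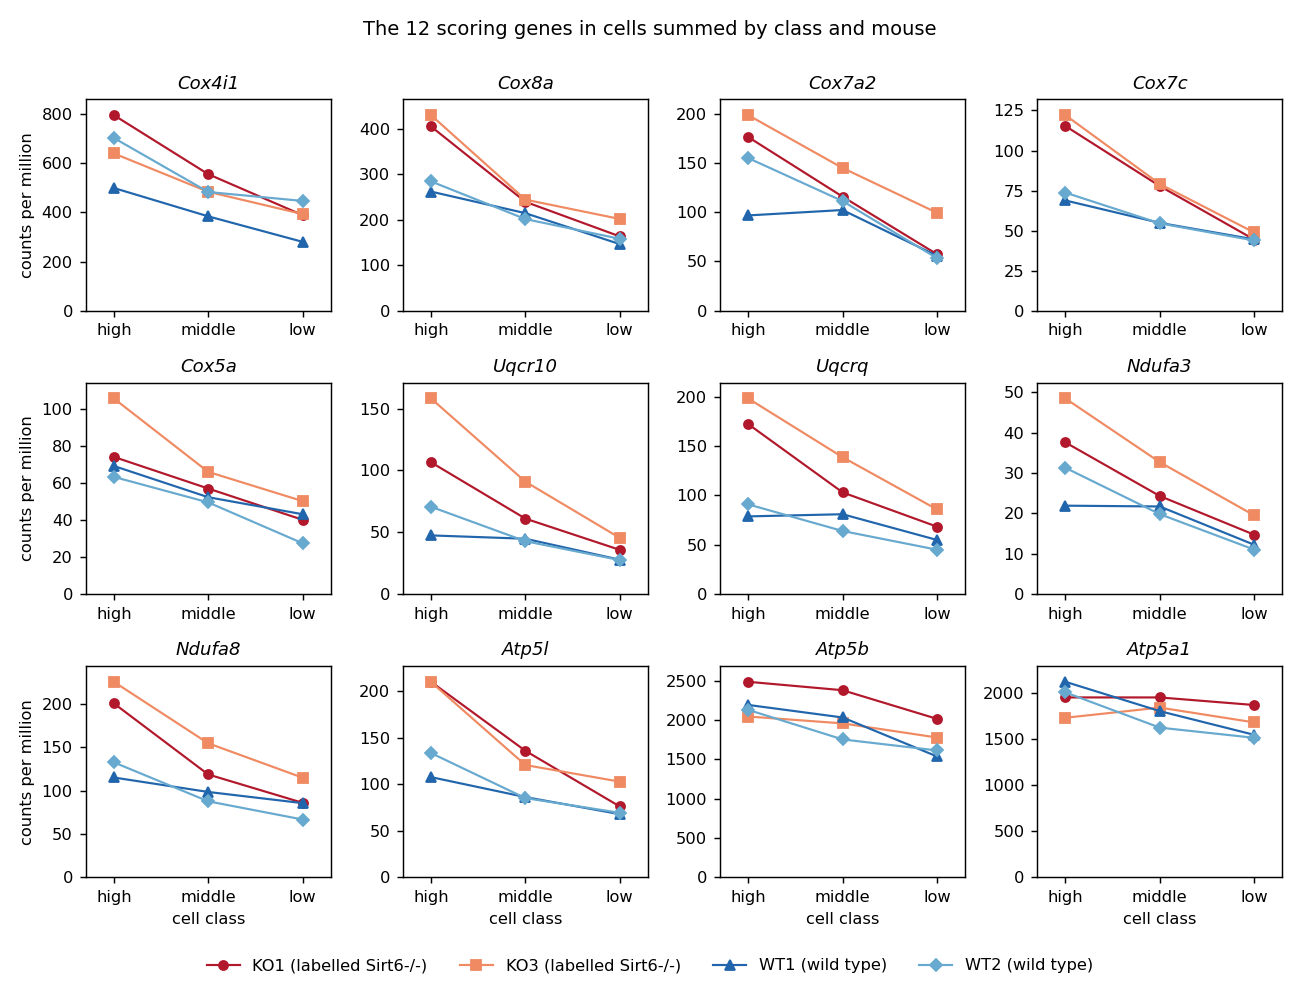
CPM of each scoring gene in the summed high, middle and low cells of each mouse, with 1 line per mouse and axes that start at 0. In these values, which are not TMM-scaled, Atp5b and Atp5a1 are higher in the high cells of all 4 mice by a smaller ratio than Cox8a. Cox8a lies at 261.7 to 429.8 CPM in high cells and 146.2 to 201.5 CPM in low cells.

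The other nuclear genes of the respiratory chain, which the score did not use, were higher in high cells as a group. All 68 had a log2 difference above 0 (high minus low; 48.1% of all 12551 genes tested did), with a median of 0.70, and 56 were higher in the high cells of all 4 mice, against 11% of all genes. The mean over mice of the list's median log2 ratio was 0.711 ± 0.174 (SD, n = 4 mice), and the mice were all on the same side, at 0.80, 0.91, 0.52 and 0.61 in KO1, KO3, WT1 and WT2. The summed level of the 68 genes was 13640, 15630, 10990 and 11720 CPM in high cells and 8402, 9632, 7915 and 8432 CPM in low cells of KO1, KO3, WT1 and WT2, with the middle cells between them in every mouse. These genes were measured in the same libraries as the score.

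No gene passed edgeR's quasi-likelihood test with the mouse as a block after Benjamini-Hochberg adjustment over all 12551 genes (0 called, 0.0% in either direction; smallest adjusted p = 0.27). At an unadjusted p under 0.05 edgeR counted 552 genes higher (4.4%) and 561 lower (4.47%). DESeq2 with the same block called 283 genes higher (2.25%) and 277 lower (2.21%), and limma-voom called 0. The 12 scoring genes stayed in the fit, though the rule used them. They make up 11 of the 552 and 10 of the 283, and these are no support for the classes. Of the 68 respiratory genes outside the score, 47 had an unadjusted p under 0.05 by edgeR and 33 were called higher by DESeq2, none lower. The verdict on single genes therefore rests on the tool, and p-values below name it. DESeq2 counts for the lists below are to be read beside the shares of all genes, 2.25% higher and 2.21% lower. Adjusted p-values by edgeR lay at 0.27 or above for each gene named in the report.

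Complex I, the NADH dehydrogenase, had 34 genes outside the score, of which 27 were higher in all 4 mice and 14 were called higher by DESeq2 (median log2 difference 0.71, range 0.15 to 1.16). Ndufb9, an accessory subunit of its membrane arm, lay at 278.84, 226.3, 156.53 and 226.85 CPM (TMM-scaled, as for all levels from here on) in the high cells of KO1, KO3, WT1 and WT2, against 129.83, 144.78, 89.88 and 137.09 CPM in the low cells (log2 difference 0.82, SE 0.143; DESeq2 adjusted p = 0.000467). The 2 ranges did not overlap. Ndufb10, of the same arm, was at 88.23 to 178.02 CPM in high and 51.06 to 100.05 CPM in low cells (0.80, SE 0.140), Ndufb8 at 138.98 to 216.98 and 88.27 to 129.48 CPM (0.75, SE 0.135), and Ndufa6 at 53.23 to 83.69 and 27.08 to 36.77 CPM (1.07, SE 0.203). All 4 genes were higher in the high cells of each mouse.

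Complex II, succinate dehydrogenase, also works in the TCA cycle and has 4 nuclear subunits. Its median log2 difference, 0.39, was the lowest of the complexes, and 0 of 4 genes were called by DESeq2. This order depended on the score. With a trend on ribosomal protein level, on mean transcript length or on both removed as well, the complex II median was the highest of the complexes, at 0.49, 0.35 and 0.41. Sdhb, the iron-sulfur subunit, was at 177.05, 284.64, 170.35 and 169.86 CPM in high cells, against 126.25, 106.33, 125.27 and 133.76 CPM in low cells (0.67, SE 0.224; DESeq2 adjusted p = 0.123), and it was the 1 member higher in all 4 mice. Sdha, the catalytic flavoprotein, was at 361.66, 486.76, 418.4 and 432.64 CPM in high cells, against 422.71, 348.8, 381.65 and 366.83 CPM in low cells (0.16, SE 0.149), so the classes overlapped. Sdhc and Sdhd, the membrane anchors, had log2 differences of 0.51 (SE 0.285) and 0.26 (SE 0.208) and were higher in 3 of 4 mice each.

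Complex III and cytochrome c had 8 genes outside the score, all higher in all 4 mice, of which 4 were called higher by DESeq2 (median 0.50). Uqcr11, a small subunit, was at 222.31, 262.33, 122.44 and 142.54 CPM in high cells, against 88.82, 127.55, 64.05 and 72.58 CPM in low cells (1.07, SE 0.145; DESeq2 adjusted p = 2e-06). Its high value in WT1 was below its low value in KO3, so the ranges overlapped across mice but not within any mouse. Uqcrh, the hinge protein, differed by 0.71 (SE 0.142) and Cyc1, the cytochrome c1 heme subunit, by 0.56 (SE 0.148). In complex IV, which reduces oxygen, 5 of 7 genes were higher in all 4 mice and 5 were called higher by DESeq2 (median 0.85). Cox6b1 lay at 343.91, 472.05, 228.85 and 339.76 CPM in high cells, against 171.83, 229.4, 136.31 and 163.16 CPM in low cells (0.96, SE 0.123; DESeq2 adjusted p = 1.99e-08), with the lowest high value just under the highest low value. Cox5b differed by 0.82 (SE 0.130), Cox7b by 1.07 (SE 0.180) and Cox6a1 by 0.85 (SE 0.180), each higher in all 4 mice.

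Complex V had 15 genes outside the score, all 15 higher in all 4 mice and 10 called higher by DESeq2 (median 0.81, range 0.32 to 1.42). Atp5g1, one of the genes for subunit c of the rotating ring, was at 209.56, 265.06, 157.89 and 182.52 CPM in high cells, against 102.49, 151.13, 79.09 and 75.9 CPM in low cells (1.03, SE 0.144; DESeq2 adjusted p = 3.82e-06). Its values did not overlap between the classes. Atp5mpl, a small membrane subunit, was at 79.0 to 147.18 CPM in high cells and 37.46 to 53.76 CPM in low cells (1.25, SE 0.177), and Atp5g3, another subunit c gene, differed by 0.81 (SE 0.157). Atpif1, which encodes the inhibitor that stops ATP synthase from running in reverse, was also higher, at 71.02 to 102.43 CPM in high cells and 31.76 to 57.24 CPM in low cells (0.96, SE 0.186).

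**Figure D2:**
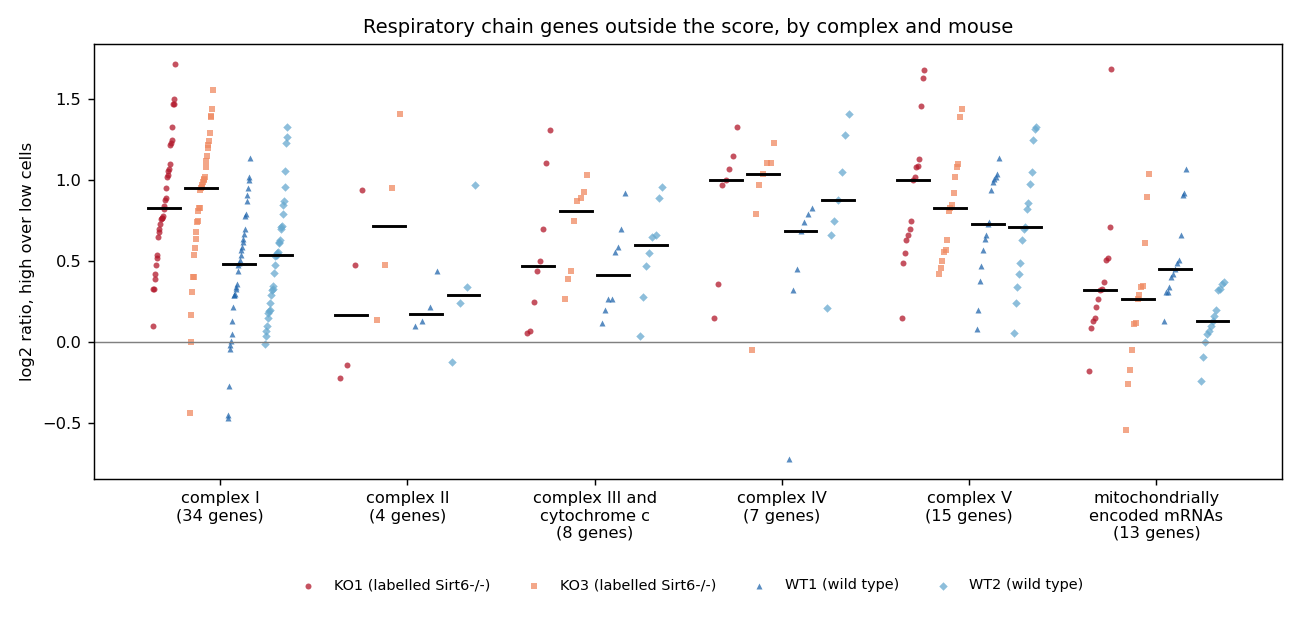
Log2 ratio of high over low cells for each respiratory chain gene outside the score, by complex and mouse, with 1 point per gene and a bar at the median. The medians of complexes I, III, IV and V lie between 0.42 and 1.04 in the 4 mice, and those of the 13 mitochondrially encoded genes between 0.13 and 0.45.

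The mitochondrially encoded messenger RNAs, which are made from the organelle's own genome, differed less than the nuclear ones. Of 13 genes 11 had a log2 difference above 0, 8 were higher in all 4 mice and 2 were called higher by DESeq2 (median 0.28). The mean over mice of the list's median was 0.292 ± 0.134 (SD, n = 4), against 0.711 ± 0.174 for the nuclear genes; the difference of the 2 lists was not tested. mt-Nd2 lay at 338.56, 482.1, 305.48 and 303.47 CPM in high cells, against 237.21, 315.58, 246.54 and 242.43 CPM in low cells (0.44, SE 0.120; DESeq2 adjusted p = 0.0423, and 0.0632 without the cells that stood apart), and mt-Cytb at 2228.26 to 3343.62 and 1631.29 to 2682.1 CPM (0.28, SE 0.106). mt-Co3 was called by DESeq2 (adjusted p = 0.0394) but was level in WT2, at 720.26 CPM in high and 720.46 CPM in low cells. With the length trend removed the list's median was -0.04, with 5 of 13 above 0. Without the cells that stood apart it was 0.31, with 11 of 13 higher in all 4 mice and 1 called higher by DESeq2. Nuclear copies of mitochondrial genes can share reads with them.

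Genes that build, feed or control the chain did not move as one block. For the counts below, DESeq2 called 2.25% of all genes higher. Assembly factors, which help put the complexes together, were above 0 in 26 of 39 (median 0.38), 9 of them higher in all 4 mice, and 0 were called by DESeq2. The import machinery was above 0 in 24 of 26 (median 0.54), with 3 called higher by DESeq2, among them Tomm7, a small subunit of the outer membrane pore, at 57.43 to 106.82 CPM in high and 29.78 to 50.9 CPM in low cells (1.12, SE 0.242), and Hspe1, the mitochondrial chaperonin partner (0.84, SE 0.196). Mitochondrial ribosomal proteins, which translate the organelle's messages, were above 0 in 71 of 75 (median 0.50), 40 of them higher in all 4 mice. DESeq2 called 3 of the 75 higher, among them Mrpl33 (1.31, SE 0.292) and Mrps5 (0.68, SE 0.171), which is near the share of all genes. Without the cells that stood apart it called 2.67% of this list higher, against 2.22% of all genes, and Mrps5 was not called (adjusted p = 0.191). Of 22 genes of the TCA cycle and pyruvate dehydrogenase 15 were above 0 (median 0.13); Mdh2, the mitochondrial malate dehydrogenase, was called higher by DESeq2 (0.41, SE 0.111; adjusted p = 0.159 without the cells that stood apart), while Ogdh, of the 2-oxoglutarate dehydrogenase complex, had a difference of -0.43 (SE 0.156), was lower in all 4 mice and was called by DESeq2 only without those cells (adjusted p = 0.0123). In fatty acid oxidation 10 of 17 were above 0 (median 0.16), and DESeq2 called Hadh (0.71, SE 0.136) and Etfb (0.82, SE 0.163), which passes electrons on towards ubiquinone.

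Regulators of mitochondrial biogenesis had no common direction over the mice. Of 15 tested 9 were above 0 (median 0.20) and 0 were called by DESeq2. The list's median log2 ratio was 0.42, -0.09, -0.05 and -0.05 in KO1, KO3, WT1 and WT2. Nrf1, the transcription factor whose core is marked in the promoters above, lay at 33.1, 24.31, 22.03 and 23.45 CPM in high cells, against 76.25, 24.64, 84.58 and 31.39 CPM in low cells (-0.89, SE 0.396), with the classes nearly equal in KO3. Tfam, which encodes a factor that packs the mitochondrial genome and starts its transcription, lay at 69.82, 36.76, 23.67 and 27.98 CPM in high cells, against 48.86, 62.78, 50.91 and 50.72 CPM in low cells (-0.56, SE 0.343). Polg, the mitochondrial DNA polymerase, had a difference of -0.53 (SE 0.286). Esrra, the estrogen-related receptor that works with PGC-1 coactivators, was higher in all 4 mice at low levels, 6.88 to 15.74 CPM in high and 1.80 to 4.89 CPM in low cells (2.02, SE 0.747; DESeq2 adjusted p = 0.0665), and its difference was 1.31 without the cells that stood apart. Ppargc1a, which encodes PGC-1 alpha, did not pass the filter on low counts.

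Cytosolic ribosomal protein genes were higher in high cells by nearly the same amount as respiratory genes. Of 83 tested, of 86 listed, all 83 had a difference above 0, 79 were higher in all 4 mice and 65 were called higher by DESeq2, with a median of 0.66 and a mean over mice of 0.652 ± 0.094 (SD, n = 4). Rps25, whose promoter is printed above, was at 820.25, 928.24, 558.91 and 771.92 CPM in high cells, against 457.64, 545.54, 320.18 and 461.0 CPM in low cells (0.79, SE 0.100; DESeq2 adjusted p = 3.1e-10). The ranges did not overlap. Rps29 differed by 1.09 (SE 0.132), Rpl26 by 0.79 (SE 0.105) and Rps18 by 0.75 (SE 0.108). Across the cells of a mouse the score had a Pearson correlation with the mean level of these genes of 0.837, 0.671, 0.767 and 0.665 in KO1, KO3, WT1 and WT2, and of 0.756, 0.603, 0.857 and 0.665 without the cells that stood apart. Processed pseudogenes share sequence with ribosomal protein genes, and the authors' estimated counts divide such reads between copies, so single values of this family are uncertain.

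Other short transcripts were higher too. Of 30 abundant short transcripts with no mitochondrial role 29 were above 0 (median 0.48), 19 were higher in all 4 mice and 8 were called higher by DESeq2. Atox1, a copper chaperone, lay at 130.18, 172.49, 102.0 and 146.81 CPM in high cells, against 81.29, 98.99, 56.69 and 78.47 CPM in low cells (0.81, SE 0.144), with no overlap. Elob, an elongin subunit, differed by 1.05 (SE 0.199), Cstb, a protease inhibitor, by 0.63 (SE 0.128), and Ppia, cyclophilin A, by 0.52 (SE 0.121). All 14 proteasome core subunits were above 0 (median 0.45) and 2 were called by DESeq2, among them Psma7 (0.63). With the length trend removed the median was 0.17 for the short transcripts and 0.04 for the proteasome, and with the ribosomal protein trend removed too, -0.11 with 9 of 30 above 0 and -0.01 with 7 of 14 above 0. The reverse held for long messages. Of 20 transcripts of long structural proteins 3 were above 0 (median -0.42), 7 were lower in all 4 mice and 4 were called lower by DESeq2. Hspg2, the basement membrane proteoglycan perlecan, was at 13.43, 7.39, 4.25 and 4.0 CPM in high cells, against 37.94, 61.41, 60.18 and 35.11 CPM in low cells (-2.89, SE 0.499), again with no overlap. Flna, an actin crosslinker, differed by -0.80 (SE 0.213) and Plec, which links keratin filaments to the membrane, by -0.44 (SE 0.113). With the length trend removed the median of the long list was 0.06, with 12 of 20 above 0.

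Over the 8529 genes with at least 10 CPM on average, the log2 difference had a Pearson correlation of -0.283 with log10 transcript length, given as a description across genes, which are not replicates. Among transcripts under 1000 bases, 40 respiratory genes outside the score had a median difference of 0.82 and 92.5% of them were higher in all 4 mice, 58 ribosomal protein genes had 0.71 and 98.3%, and the 761 genes of neither group had 0.45 and 48.8%. Between 1000 and 2000 bases the medians were 0.50 over 21 respiratory, 0.43 over 20 ribosomal protein and 0.09 over 2004 other genes. Above that, 6 respiratory genes of 2000 to 3000 bases had a median of 0.47, against -0.09 over 2074 other genes, and the other genes reached -0.23 at 3000 to 5000 bases. Respiratory genes thus lay above other genes of like length in each of these 3 length classes, and the difference was not tested. The mean transcript length per cell, weighted by counts, had a median over cells of 2391.5, 2161.0, 2408.0 and 2424.0 bases in the high cells of KO1, KO3, WT1 and WT2, against 2533.0, 2413.0, 2537.0 and 2593.5 bases in the low cells. It was lower in high cells in 4 of 4 mice. Its part in the result was not tested.

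**Figure D3:**
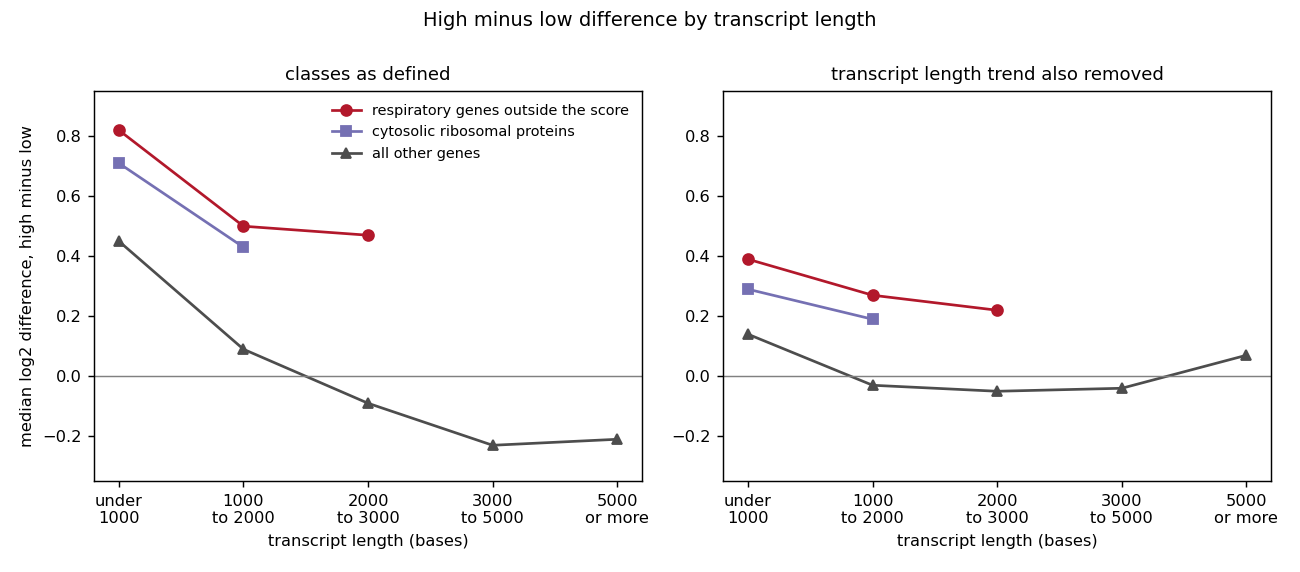
Median log2 difference (high minus low) by transcript length in bases, for respiratory genes outside the score, cytosolic ribosomal protein genes and all other genes, where at least 5 genes fell in a class. On the left the classes are as defined, and under 1000 bases the medians are 0.82, 0.71 and 0.45; on the right, after the length trend was also removed from the score, they are 0.39, 0.29 and 0.14.

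The classes were therefore drawn again after further trends had been removed from the score. With the ribosomal protein trend removed as well, 41 of the 70 high and 41 of the 70 low cells kept their class. The respiratory genes outside the score were then above 0 in 64 of 68 with a median of 0.29. Ribosomal protein genes had a median of -0.03. The trend removed was the mean level of these same ribosomal protein genes, so a median near 0 for them was built in. The score still used respiratory genes, so the 2 medians do not show that the groups vary apart. With the mean transcript length removed instead, 43 high and 50 low cells kept their class and the medians were 0.32 for respiratory and 0.25 for ribosomal protein genes. With both removed, an alternative chosen after seeing the data, 37 high and 44 low cells kept their class, 46 of 68 respiratory genes were above 0 and their median was 0.12. By complex, the median with both removed was 0.12 for complex I, 0.41 for the 4 genes of complex II, 0.05 for complex III, -0.02 for complex IV and 0.14 for complex V. Total counts had a higher median in high cells in 2 of 4 mice and genes detected in 3 of 4, and both had been used by the rule. The share of counts in mitochondrially encoded messenger RNAs had a higher median in the high cells of all 4 mice, at 2.116, 1.603, 1.549 and 1.671% in high cells and 1.53, 1.36, 1.097 and 1.616% in low cells of KO1, KO3, WT1 and WT2.

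**Figure D4:**
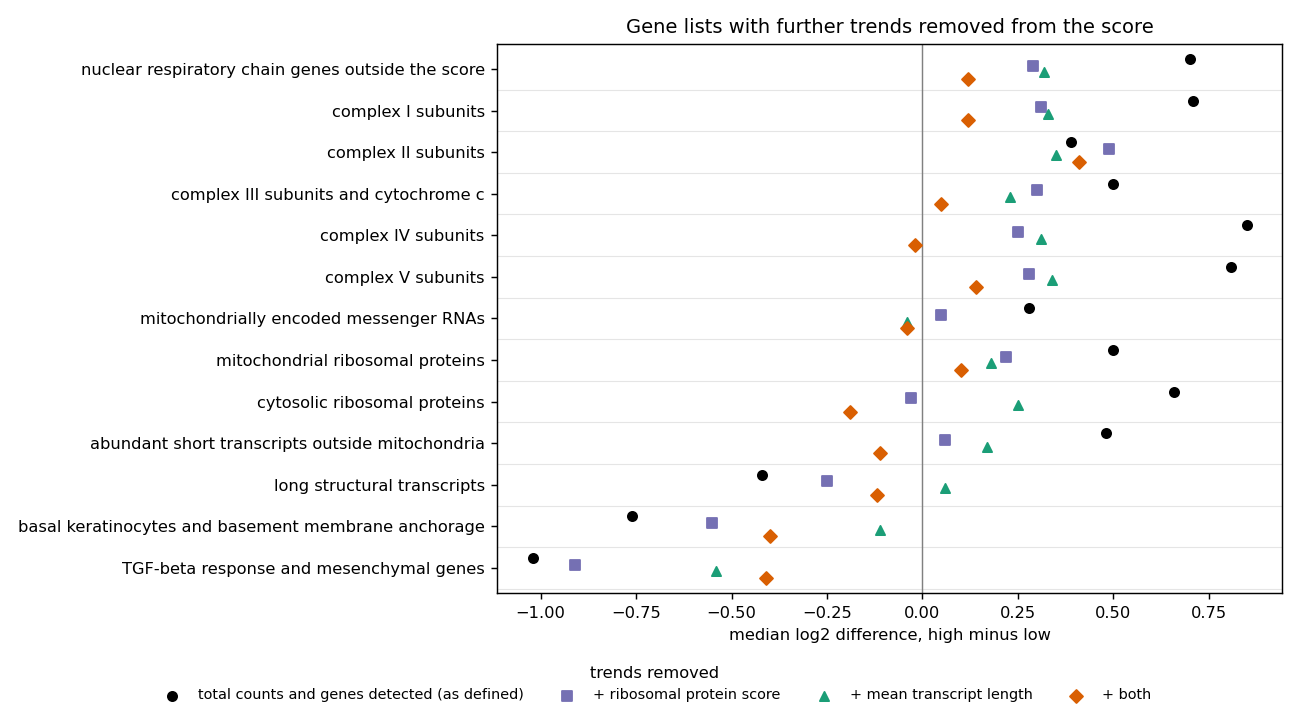
Median log2 difference (high minus low) of 13 gene lists when the classes were drawn after removing trends on total counts and genes detected alone, and with the ribosomal protein score, the mean transcript length or both removed too. The respiratory genes outside the score fall at 0.70, 0.29, 0.32 and 0.12, and the basal and basement membrane list at -0.76, -0.55, -0.11 and -0.40.

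Genes of basal keratinocytes and of their anchorage to the basement membrane were lower in high cells as a group. Of 14 tested 0 were above 0, 11 were lower in all 4 mice, against 8.98% of all genes, and 8 were called lower by DESeq2 (median -0.76; mean over mice -0.70 ± 0.18, SD, n = 4). Itgb1, the integrin beta 1 chain, lay at 277.96, 213.51, 294.6 and 348.65 CPM in high cells, against 532.22, 400.38, 805.14 and 644.95 CPM in low cells (-1.04, SE 0.144; DESeq2 adjusted p = 1.99e-08). Lamb3, a chain of laminin-332, lay at 106.5, 63.87, 147.02 and 266.56 CPM in high cells, against 379.16, 526.69, 499.38 and 568.52 CPM in low cells (-1.92, SE 0.331; DESeq2 adjusted p = 3.13e-07). For both genes every high value was below every low value. The basal keratins did not part the classes in this way. In values that are not TMM-scaled, Krt14 lay at 21977.9, 23328.5, 15459.1 and 29321.9 CPM in high cells, against 21409.5, 34053.9, 26505.7 and 30089.7 CPM in low cells. Krt5 lay at 5214.4, 3137.8, 5445.9 and 7648.8 CPM, against 4430.6, 4161.4, 6006.1 and 8600.0 CPM. Both were higher in the high cells of KO1 and lower in those of KO3, WT1 and WT2. Col17a1, the hemidesmosome collagen, differed by -0.89 (SE 0.165), Itga3 by -0.82 (SE 0.157) and Lama3, another laminin-332 chain, by -2.0 (SE 0.487). Of the surface and factor markers of these cells, Itga6 differed by -0.70 (SE 0.193), Trp63 by -0.42 (SE 0.132) and Cd44 by -0.39 (SE 0.141), each lower in all 4 mice, and DESeq2 called Itga6 (adjusted p = 0.0394, and 0.0709 without the cells that stood apart). The median transcript of the basal list measures 4272 bases, and with the length trend removed its median was -0.11, with 4 of 14 genes above 0.

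Transcripts of the TGF-beta response and mesenchymal genes were lower as well. Of 15 tested 0 were above 0, 6 were lower in all 4 mice and 4 were called lower by DESeq2 (median -1.02). Tgfbi, an extracellular protein induced by TGF-beta, lay at 362.2, 316.34, 327.84 and 842.5 CPM in high cells, against 433.42, 803.07, 809.82 and 1694.24 CPM in low cells (-0.98, SE 0.212). Inhba, the activin A subunit, was at 0.78 to 6.85 CPM in high and 10.86 to 47.16 CPM in low cells (-3.32, SE 0.884). Sparc differed by -1.74 (SE 0.437) and Tnc, tenascin C, by -1.02 (SE 0.277). Without the cells that stood apart 2 genes of the list were called, and DESeq2 no longer called Sparc (-1.21, adjusted p = 0.0994) or Tnc (-0.71, adjusted p = 0.435). With the length trend removed the median of the list was -0.54.

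Immediate early genes, which respond within minutes to growth factors and to handling, were above 0 in 1 of 19 (median -0.42), with 11 lower in all 4 mice and 6 called lower by DESeq2. Klf6 lay at 423.04, 355.97, 371.91 and 838.28 CPM in high cells, against 809.25, 589.34, 680.72 and 1462.72 CPM in low cells (-0.83, SE 0.103; DESeq2 adjusted p = 9.23e-12). Egr1 differed by -0.50 (SE 0.102), Fosb by -0.73 (SE 0.173) and Dusp1 by -0.49 (SE 0.143). The size of the difference and the calls depended on the 3 cells that stood apart. Without them 1 of 19 genes was again above 0, but the median was -0.19, 1 gene was lower in all 4 mice and 1 was called. The list's median was then -0.44, 0.24, -0.30 and -0.47 in KO1, KO3, WT1 and WT2, against -0.62, -0.09, -0.44 and -0.49 with all cells. Egr1, Fosb and Dusp1 lay at -0.19, -0.28 and -0.19 without those cells, with DESeq2 adjusted p of 0.553, 0.527 and 0.345. WT2 was the highest mouse in both classes for these genes, yet its high cells were below its own low cells. In suprabasal differentiation 5 of 17 were above 0 (median -0.56) and 3 were called lower by DESeq2. Tgm3, a transglutaminase of the cornified layer, lay at 3.53, 33.1, 0.06 and 0.27 CPM in high cells, against 115.07, 287.14, 8.31 and 6.12 CPM in low cells (-4.56, SE 0.599; DESeq2 adjusted p = 9.23e-12). Spink5, a protease inhibitor of the upper epidermis, differed by -1.63 (SE 0.341). The list's median log2 ratio was -1.43, -1.44, -0.07 and 0.17 in KO1, KO3, WT1 and WT2. The size of the list's median depended on the processing: it was -2.80 with 0 of 17 above 0 when the length trend was removed, -1.14 without the cells that stood apart, -0.14 with the ribosomal protein trend removed and -0.03 with 8 of 17 above 0 when log2 values were averaged over cells. Wound keratins depended on the mouse too: Krt16 lay at 599.66, 2516.61, 932.96 and 1168.54 CPM in high cells, against 4698.41, 8783.8, 3489.96 and 647.39 CPM in low cells, and Krt6b at 419.71, 1936.01, 534.5 and 476.09 CPM, against 4624.92, 7955.72, 2430.79 and 175.3 CPM, so that both were lower in 3 mice and higher in WT2. The median of the 9 wound genes tested was -0.97, and it was -2.78 with the length trend removed, -1.46 without the cells that stood apart and -0.31 with the ribosomal protein trend removed.

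Glycolysis genes had no common direction over the mice. Of 20 genes 5 were above 0 (median -0.15), 3 were lower in all 4 mice and 0 were called by DESeq2. The list's median log2 ratio was -0.28, -0.34, -0.42 and 0.29 in KO1, KO3, WT1 and WT2, and its median difference was 0.09 when log2 values were averaged over cells in place of summing counts. Hk2, the inducible hexokinase, lay at 22.95, 81.52, 53.01 and 67.61 CPM in high cells, against 72.24, 107.33, 75.89 and 106.1 CPM in low cells (-0.80, SE 0.271; called by DESeq2 only without the cells that stood apart, adjusted p = 0.0284), and Slc16a3, the lactate exporter, at 70.61, 145.78, 46.33 and 26.07 CPM, against 182.64, 312.9, 100.2 and 25.18 CPM (-0.89, SE 0.274). Across cells the score had a Pearson correlation with the mean glycolysis level of -0.214 in KO1, -0.302 in KO3, 0.300 in WT1 and 0.299 in WT2, and of 0.016, -0.274, 0.014 and 0.299 without the cells that stood apart. Hypoxia response genes were above 0 in 3 of 15 (median -0.64) and genes of cholesterol and fatty acid synthesis in 3 of 24 (median -0.43), in both cases with WT2 alone at a positive median (0.31 and 0.32). The hypoxia median was -0.09 with 6 of 15 above 0 when the ribosomal protein trend was removed, -0.03 with 7 of 15 when the length trend was removed and -0.16 with 7 of 15 when both were. That of cholesterol and fatty acid synthesis was -0.10, -0.64 and -0.24 under the same settings.

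**Figure D5:**
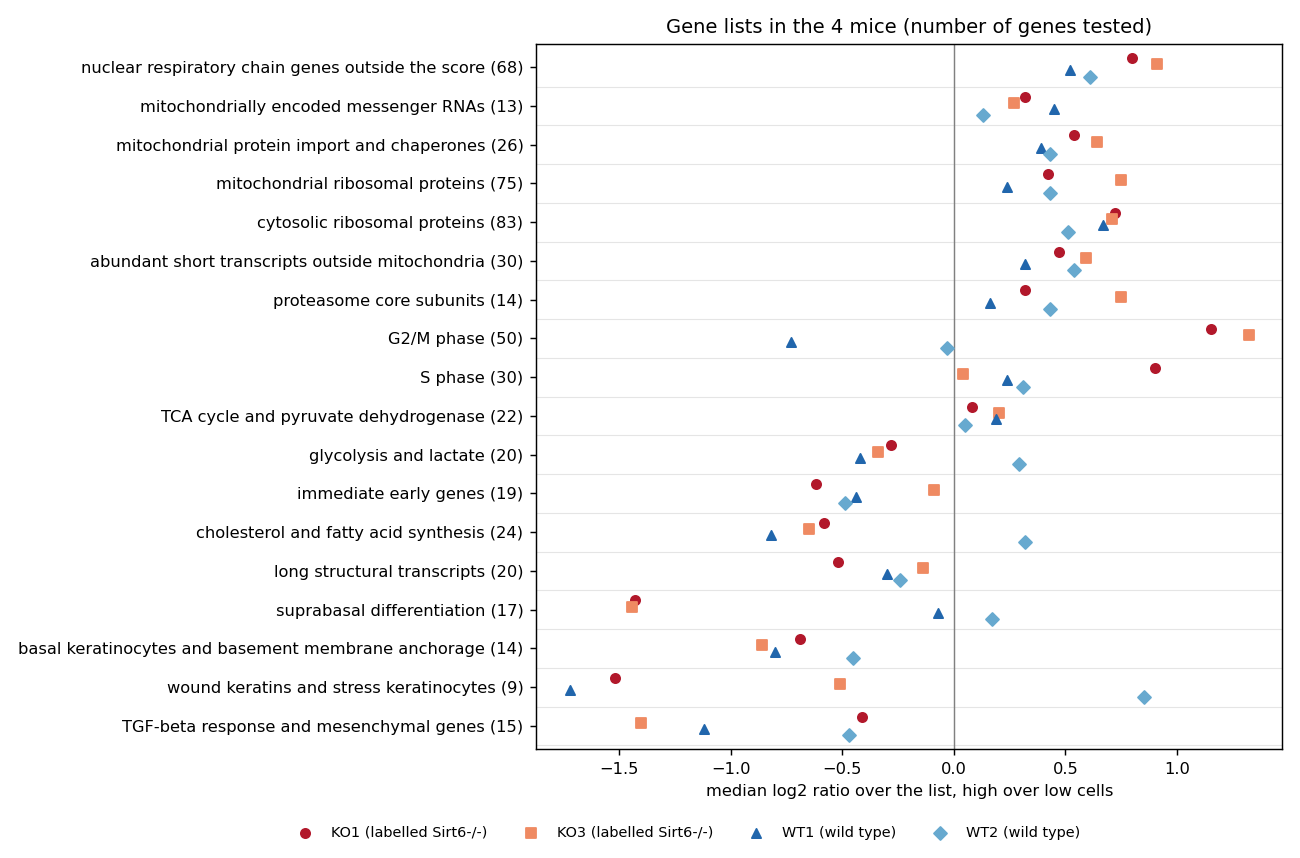
Median log2 ratio of high over low cells for 18 gene lists in each mouse, with the number of genes tested in brackets. The lists of respiratory genes outside the score, mitochondrially encoded messenger RNAs, mitochondrial import, mitochondrial and cytosolic ribosomal proteins, and short transcripts lie right of 0 in all 4 mice and the basal and TGF-beta lists left of 0, while G2/M genes lie at 1.15 and 1.32 in KO1 and KO3 and at -0.73 and -0.03 in WT1 and WT2.

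The difference between high and low cells was compared between the genotypes with an interaction term. edgeR called 0 genes (474 at an unadjusted p under 0.05, 3.78%) and DESeq2 112 (0.892%), or 90 without the cells that stood apart. Of the 68 respiratory genes outside the score 52 had a larger difference in the mice labelled Sirt6-/-, against 50.7% of all genes. The median of the interaction was 0.23, against 0.02 over all genes. Of the 68 genes 2 had an unadjusted p under 0.05 by edgeR and 0 were called by DESeq2. Their median log2 ratio was 0.80, 0.91, 0.52 and 0.61 in KO1, KO3, WT1 and WT2, and 0.70, 0.82, 0.63 and 0.63 without the cells that stood apart. The cell cycle genes of G2/M parted the mice: 45 of 50 had a larger difference in the mice labelled Sirt6-/- (median of the interaction 1.84), 15 had an unadjusted p under 0.05 by edgeR and 7 were called by DESeq2, or 4 without the cells that stood apart. Top2a, the DNA topoisomerase of dividing cells, lay at 118.56 and 372.62 CPM in the high and 32.48 and 146.22 CPM in the low cells of KO1 and KO3, and at 109.02 and 131.61 CPM in the high and 117.58 and 94.08 CPM in the low cells of WT1 and WT2. Its log2 difference over all mice was 0.90 (DESeq2 adjusted p = 0.147). DESeq2 called Top2a higher only without the cells that stood apart (1.18, adjusted p = 0.00174). Hmgb2 was higher in high cells of all 4 mice (0.93, SE 0.238; DESeq2 adjusted p = 0.0194). S phase genes were above 0 in 25 of 30 (median 0.40), and Chaf1b, a chromatin assembly factor, and Tyms, thymidylate synthase, were called higher by DESeq2 (0.92, SE 0.230, and 1.10, SE 0.292); Chaf1b was not called without the cells that stood apart (adjusted p = 0.0954). With cell cycle trends removed from the score 56 high and 62 low cells kept their class and the respiratory median stayed at 0.70. The genes with the smallest interaction p by edgeR were Bambi, Gfra1 and Ckb. Bambi was counted in 0.0 to 47.1% and Gfra1 in 4.5 to 23.5% of the cells of a class in a mouse, so both rest on few cells. Ckb was counted in 13.6 to 84.6%, with both classes of WT2 lowest. Ckb, brain creatine kinase, lay at 36.28 and 23.44 CPM in the high and 106.5 and 102.79 CPM in the low cells of KO1 and KO3, and at 121.87 and 9.77 CPM in the high and 65.77 and 4.3 CPM in the low cells of WT1 and WT2 (interaction -2.88; edgeR adjusted p = 1.0, DESeq2 adjusted p = 0.00419).

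Outside the lists, 10 of the 12 named genes that were higher in high cells are pseudogenes in RefSeq, 5 of them named after a ribosomal protein gene. Among them Rps27a-ps2 (chr9:83409660-83410126) lay at 562.44, 558.62, 424.91 and 519.62 CPM in high cells, against 322.4, 346.19, 268.94 and 319.7 CPM in low cells (0.71, SE 0.105). The reads of a pseudogene and of its parent gene can be too alike to be told apart. The others were Chchd2 (chr5:129881156-129887470), a mitochondrial intermembrane space protein that also regulates a complex IV gene, at 668.25, 936.5, 585.86 and 607.74 CPM in high cells, against 421.2, 567.13, 387.38 and 397.47 CPM in low cells (0.65, SE 0.101; DESeq2 adjusted p = 5.25e-07), and Nop10 (chr2:112261926-112263269), a subunit of box H/ACA ribonucleoproteins (1.19, SE 0.202). Among the 12 that were lower, Serinc1 (chr10:57515774-57532530) lay at 91.15, 55.94, 63.77 and 70.89 CPM in high cells, against 186.28, 158.78, 133.73 and 170.6 CPM in low cells (-1.22, SE 0.159; DESeq2 adjusted p = 1.11e-06), with no overlap. Ecm1, extracellular matrix protein 1, differed by -2.24 (SE 0.307), Htra1, a secreted serine protease, by -1.10 (SE 0.177), Col18a1, a basement membrane collagen, by -0.80 (SE 0.142), F3, tissue factor, by -1.66 (SE 0.304) and Tnfaip3, the NF-kappaB inhibitor A20, by -1.09 (SE 0.170). Swap70, Sh2d5, Poglut1, Pttg1ip, Epha1 and Scmh1 lay between -1.69 and -0.92. Without the cells that stood apart Tnfaip3 lay at -0.69 (DESeq2 adjusted p = 0.0536), Pttg1ip at -0.69 (adjusted p = 0.109) and Scmh1 at -0.94 (adjusted p = 0.00409). Coordinates are on GRCm38 with GENCODE M21 annotation.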

How the data were processed

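The submitters deposited 1 table of gene by cell values, which per the submitters' processing notes came from alignment with STAR to mm10 (GRCm38) and estimation with RSEM. Their versions and the gene annotation were not given in the sources used here. The deposited values are expected counts (estimated counts per gene, not normalized): 21.52% of those above 0 were not whole, because RSEM divides reads that match several genes. Of 54247 gene IDs, 54156 matched GENCODE M21, 299 of them only without the version number, and the unmatched held 0.000107% of counts. No cell was left out except in an alternative without 3 cells that stood apart, and no doublet caller was run on singly sorted wells.

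The members, gene lists and tests were chosen with earlier results of these data known. Scores were computed as described above with a pseudocount of 1 (Python 3.11.15, numpy 2.4.6, pandas 2.3.3); genes detected were those with a count above 0. Expected counts were summed per class and mouse and rounded, which gave 8 sums, and 12551 genes passed edgeR's filterByExpr. edgeR 4.0.16 in R 4.3.3 fitted a quasi-likelihood model with the mouse as a block (high and low cells come from the same animal), TMM scaling and Benjamini-Hochberg adjustment at 0.05, tested on simulated data first; 3 residual degrees of freedom remained, and 2 with the interaction. DESeq2 1.42.0 and limma 3.58.1 were alternatives. A log2 difference or ratio is high over low; a ratio per mouse is of TMM-scaled CPM with a pseudocount of 1. The standard error was taken as the log2 difference over the square root of F. Transcript length is the mean exonic length of a gene's GENCODE M21 basic transcripts. Named were the scoring genes, up to 4 members per list with the smallest p plus those a sentence needs, outside the lists the 12 genes with the smallest p in each direction at 10 CPM or more with 1 direction in all mice, and the 3 with the smallest interaction p. Shares of cells and list counts carry counting error only, and no interval is given for them because cells of a mouse are not independent.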

Additional observations from a re-analysis of the deposited data

Results flagged for a closer look

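Over the 102 named genes and 37 lists, 139 sets of 4 mice were searched for a mouse whose log2 ratio stood apart from the other 3, and 8 were found; chance gives about 1 in 20. KO3 stood apart for Pttg1ip, at -1.39, for Sdhb, at 1.41, for Elob, at 1.44, and for Trp63, at -0.74. KO1 stood apart for Psma7, at 0.39, and for the median of the mitochondrial biogenesis regulators, at 0.42. WT1 stood apart for Itgb1, at -1.45, and for the median of the antioxidant and metal binding list, at -0.46. For each of these 6 genes all 4 mice had the same direction.

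The median log2 ratio of G2/M genes was above 0 in KO1 and KO3 and below 0 in WT1 and WT2, and the mean of the mice labelled Sirt6-/- lay 1.61 above that of the wild type mice. This difference between the genotypes in the list's median was not tested. Gene by gene, the interaction was called for 0 of the 50 by edgeR and for 7 by DESeq2, or 4 without the cells that stood apart. Genotype and the P1 to P4 split cannot be told apart here.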

How the results depend on the processing

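Under every alternative run with edgeR or limma-voom, or limma on mean log2 values, 0 genes were called between high and low cells, with the smallest adjusted p from 0.126 to 0.965, and DESeq2 called 560, including 33 respiratory genes outside the score against 0 by edgeR; for the interaction with genotype it called 112, against 0. DESeq2 took 82 of the 102 named genes past the threshold. Most of these genes were named for a small p in the edgeR fit of the same sums, so a high share was built in. Over all genes DESeq2 called 2.25% higher and 2.21% lower. Without the 3 cells that stood apart, chosen after seeing the data, edgeR again called 0, DESeq2 called 542, 32 and 90, and no named gene turned round. The mouse is the block, since high and low cells come from the same animal; without the replicate block 0 genes were called, the respiratory median was 0.73, and Bambi turned to -1.16. No named gene that could be fitted turned round without the filter, with at least 10 CPM in 4 sums, without TMM, on the most frequent label ending of each mouse, in cells thinned to 500000 counts or with no trend removed, where the respiratory median was 0.88. With the top and bottom 10% it was 1.16, the ribosomal protein median was 0.98 and Sdha was at -0.01; with classes of a wider share of cells (top and bottom 33%) Bambi was at -1.28. Bambi was at -2.28 with limma-voom, at -0.32 with mean log2 values per cell and at -0.31 with cell cycle trends removed, where Top2a was at -0.07. The cause was not tested for any of these.

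When 1 mouse was left out, 0 genes were called in each case, the respiratory median ran from 0.60 to 0.81 and the ribosomal protein median from 0.60 to 0.69. Bambi ran from -2.21 (without KO3; -2.18 without KO1) to 5.09, against 0.81 with all mice, Gfra1 from -2.69 to 0.20 (without KO3; 0.08 without KO1), against -1.25, and Ckb from -0.98 to 0.22 (without KO3; 0.06 without KO1), against -0.41.

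Removing further trends redraws the classes. The ribosomal protein trend is the mean level of the listed ribosomal protein genes, so a fall of their own difference follows from removing it. With the ribosomal protein trend removed, 11 named genes turned round: the respiratory median was 0.29 and the ribosomal protein median -0.03, with Rps13-ps2 at -0.05, Gm14586 at -0.07, Gm7536 at -0.14, Rps13-ps1 at -0.07, Rpl26 at -0.01, Rps18 at -0.02, mt-Co3 at -0.17, Esrra at -0.83, Ckb at 0.23, Gfra1 at 3.51 and Trp63 at 0.00. With the transcript length trend removed, 8 did: the respiratory median was 0.32 and the ribosomal protein median 0.25, with Gfra1 at 2.45, mt-Nd2 at -0.04, Esrra at -0.14, Polg at 0.17, Cstb at -0.17, Itga3 and Tnc at 0.04 and Trp63 at 0.19. With both removed, 32 did: the respiratory median was 0.12 and the ribosomal protein median -0.19. Ribosomal protein genes and pseudogenes were then at -0.15 (Rps27a-ps2), -0.13 (Gm2000), -0.16 (Gm10076 and Rpl23a-ps3), -0.17 (Rps19-ps6), -0.18 (Rps13-ps2), -0.11 (Gm11808), -0.20 (Gm14586), -0.25 (Gm7536), -0.26 (Rps13-ps1), -0.12 (Rps29), -0.08 (Rps25), -0.14 (Rpl26) and -0.19 (Rps18). Respiratory and mitochondrial genes were at -0.01 (Uqcr11), -0.05 (Uqcrh), -0.04 (Cox6b1), -0.11 (Cox7b), -0.08 (mt-Nd2), -0.62 (mt-Co3), -0.03 (mt-Cytb, Tomm7 and Hspe1), -0.06 (Mrpl33), -0.07 (Etfb), -0.73 (Esrra) and 0.21 (Polg). The others were at -0.02 (Nop10), 6.02 (Gfra1), 0.17 (Ckb), -0.10 (Cstb) and 0.26 (Trp63). Smart-seq2 counts carry no molecular identifiers, so depth does not count molecules, and 4 mice limit every test here.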

Other observations

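Further lists had median log2 differences from -0.25 to 0.30. Of 13 mitochondrial carriers and porins 11 were above 0 (median 0.28), and DESeq2 called 2 of them higher. Vdac2, a porin of the outer mitochondrial membrane, lay at 285.56, 307.42, 247.31 and 261.81 CPM in the high cells of KO1, KO3, WT1 and WT2, against 218.24, 200.04, 147.0 and 174.86 CPM in the low cells (log2 difference 0.59, SE 0.126; DESeq2 adjusted p = 0.00866). Mpc2, a subunit of the mitochondrial pyruvate carrier, lay at 38.24, 59.54, 38.4 and 49.53 CPM in high cells, against 17.93, 24.33, 16.91 and 26.91 CPM in low cells (1.11, SE 0.258; DESeq2 adjusted p = 0.0128, and 0.0517 without the cells that stood apart). Neither gene's ranges overlapped. Genes of mitochondrial dynamics and mitophagy were above 0 in 10 of 15 (median 0.30), antioxidant and metal binding genes in 20 of 30 (median 0.10), translation factors in 15 of 24 (median 0.14), heat shock chaperones in 5 of 12 (median -0.01) and sirtuins in 2 of 7 (median -0.25). Of 19 genes of the ATF4 and unfolded protein response 12 were above 0 (median 0.08). Psat1, an enzyme of serine synthesis, lay at 518.71, 625.42, 504.99 and 479.73 CPM in high cells, against 353.64, 398.52, 415.27 and 351.89 CPM in low cells, with no overlap (0.48, SE 0.117; DESeq2 adjusted p = 0.00795).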
